A study of Mus musculus with 8 samples.

Results

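Imprinted genes, whose transcripts come mainly from the allele of 1 parent, were followed in the cortex of mouse embryos that differ at Mboat7, the gene of an acyltransferase placing arachidonic acid into phosphatidylinositol. The members are 36 known imprinted genes of 17 clusters or single loci, out of 22824 genes found in both count tables. The list was drawn up after Peg3 had shown the smallest p for the interaction of stage and genotype in earlier results of these data, so Peg3 was selected on its measured log2 fold changes at the stages, and its genotype values are given here as a description without a test. The other members were chosen by their known imprinting and by being found in both tables. By textbook knowledge, 20 members are expressed from the paternal allele, 9 from the maternal allele, and 7 from 1 allele only in certain isoforms or tissues (Copg2, Grb10, Ddc, Ube3a, Blcap, Gnas and Trappc9). Of the members, 12 lie on chromosome 7, 6 on chromosome 12 and 6 on chromosome 6. The reads were not assigned to alleles, so no value here says which parental copy was transcribed.

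The 8 cortices came from Mboat7+/- and Mboat7-/- embryos, dissected at E11.5 or E12.5, with 2 embryos per genotype at each stage. The labels name no Cre line or other restriction of the mutation to a cell type. Every control is therefore also a carrier of 1 mutant allele, and no wild-type cortex was in the comparison. Poly(A)-selected RNA was sequenced, and reads were counted per gene. The stages were sequenced by different providers on different instruments and counted against different gene lists, so the genotypes were compared within each stage first, and over both stages only with a term for the stage.

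In imprinting, methylation laid down in the egg or the sperm marks a control region of a cluster, and the mark is kept through the divisions of the embryo. The marked region directs which copy of the neighbouring genes is silent. Many imprinted genes act on growth: the paternally expressed Igf2 promotes it, while the maternally expressed Igf2r and Cdkn1c restrain it. Several, such as Ndn, Magel2, Nnat, Peg3 and Ube3a, are known for roles in the brain.

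Mboat7, the targeted gene, was not lower in the labelled KO cortices at E11.5. It had 32.3 and 33.1 CPM in the labelled heterozygous cortices and 39 and 34.8 CPM in the labelled KO cortices, CPM being counts scaled to normalized library sizes. At E12.5 it had 35.5 and 36.2 CPM in the labelled heterozygous cortices and 31.7 and 32.2 CPM in the labelled KO cortices. The labelled KO cortices were thus the higher pair at E11.5 and the lower pair at E12.5. The log2 fold changes, labelled KO over labelled heterozygous, were 0.18 and -0.17 with adjusted p = 0.501 and 0.954 (edgeR's quasi-likelihood test, Benjamini-Hochberg adjustment). Gene counts do not show which part of the transcript is left in the mutant, so the labels could not be checked by this gene, and all groups are named by their labels below as labelled heterozygous and labelled KO cortices.

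Between 20799311 and 28189771 reads were counted in a cortex. The members took between 1.04% and 1.19% of the counts at E11.5 and between 0.781% and 0.816% at E12.5. Xist, the RNA of the inactive X chromosome, was at 826 CPM in replicate 1 of the labelled heterozygous cortices at E11.5 and counted no more than 2 times in each of the other 7. Replicate 1 of the labelled KO cortices at E11.5 stood apart in markers of cortical cells. The summed level of 10 neuron markers was 1307 CPM there, against 1948, 2219 and 2067 CPM in the others of that stage. The tissue label was met by radial glia markers, all 10 of which were tested at both stages and summed to between 2768 and 4047 CPM over the 8 cortices. Blood markers at E11.5 summed to 6779.9 and 5119 CPM in the labelled heterozygous cortices and 3536 and 3764 CPM in the labelled KO cortices, with Hba-a1 and Hba-a2 at 0 in all 4. Of the 6 tested, 5 were lower in the labelled KO cortices without overlap, beside 23.3% of all genes. None had an adjusted p under 0.05 in the edgeR fit. At E12.5 all 9 blood markers had a log2 fold change below 0, with a median of -0.52.

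**Figure D1:**
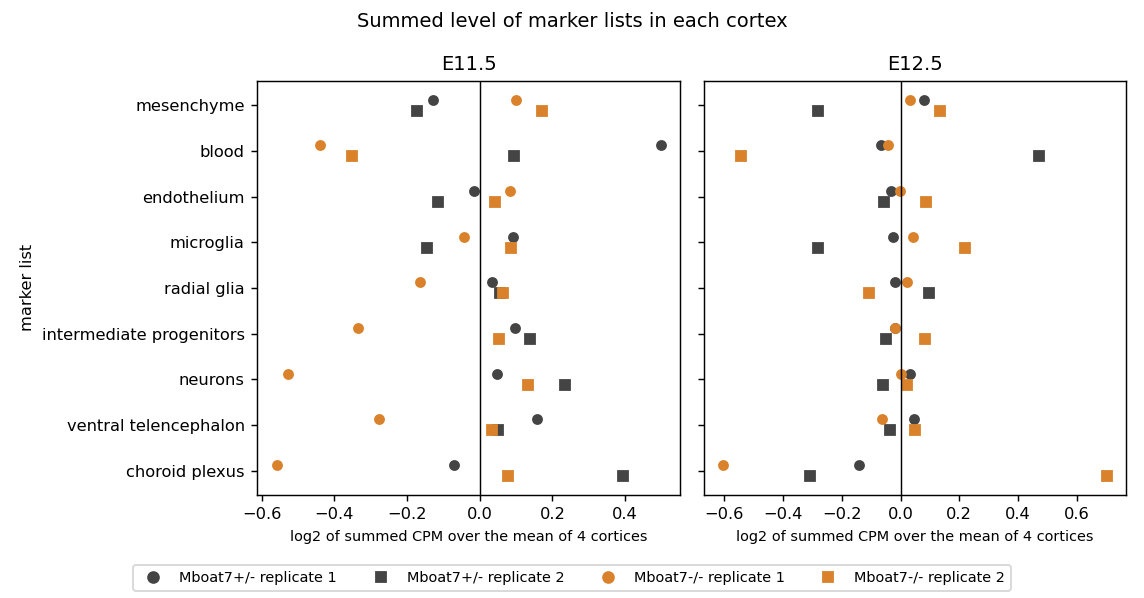
Summed level of 9 marker lists in each cortex, as the log2 of the sum over the mean of the 4 cortices of a stage; colours give the labelled genotype and symbols the replicate. At E11.5 the orange circle, replicate 1 of the labelled KO cortices, lies lowest for radial glia, intermediate progenitors, neurons, ventral telencephalon and choroid plexus, and both orange points lie above both grey points for mesenchyme and below them for blood.

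No member had an adjusted p under 0.05 at either stage when the genotypes were compared within a stage. At E11.5, 35 of the 36 members were tested. Leaving Peg3 aside, an unadjusted p under 0.05 was found for 11 of the 34 others, with 7 on the higher and 4 on the lower side in the labelled KO cortices. Over all 14935 genes tested, 14.1% had such a p, 8.03% on the higher and 6.07% on the lower side, and the share with an adjusted p under 0.05 was 0%. At E12.5, 35 members were tested and 3 had an unadjusted p under 0.05, Dlk1 and Peg10 on the lower and Impact on the higher side. Over all 16326 genes the share was 4.23%, 2.85% higher and 1.38% lower, and 0.0184% of genes, 3 in number and none a member, had an adjusted p under 0.05. The remaining member, Phlda2, which restrains growth of the placenta, was too low to be tested, with counts of 8, 0, 6 and 12 at E11.5 and of 1, 2, 3 and 0 at E12.5 (labelled heterozygous cortices first).

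The sample titles name no batch and say only biological replicate. The replicate number was therefore used as a term of a further fit, called a replicate block, which pairs cortices by number only. Same-numbered cortices deviated together with a correlation of 0.055 at E11.5 and -0.12 at E12.5. With the block, 6 of the 34 members other than Peg3 had an adjusted p under 0.05 at E11.5, beside 3.38% of all genes. H19, Igf2, Igf2r and Grb10 were on the higher side, and Ndn and Nnat on the lower side. At E12.5, Dlk1 alone of the members passed in this fit, where 0.196% of all genes did. With DESeq2, Igf2 and Nnat passed at E11.5 (1.19% of all genes) and Dlk1 at E12.5 (0.0613%). With the block, and with the trend of fold changes over transcript length and GC content removed by a spline, H19, Cdkn1c and Ndn passed at E11.5 (0.703% of all genes) and 1 member, Dlk1, at E12.5 (0.297%). Without replicate 2 of the labelled KO cortices at E11.5, 14 of the 34 passed, beside 7.72% of all genes, and without replicate 1 none did, beside 0.334%.

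Most members differed little. The log2 fold change was under 0.25 in size for 22 of 35 members at E11.5 and for 30 of 35 at E12.5. Its SE had a median of 0.11 at E11.5 and 0.11 at E12.5. Peg3, Zim1 and Snrpn had a size over 0.5 at E11.5, and Dlk1 at E12.5. As a measure of size over the list, the median absolute log2 fold change was 0.21 at E11.5 against 0.15 over all genes, and 0.12 against 0.11 at E12.5.

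**Figure D2:**
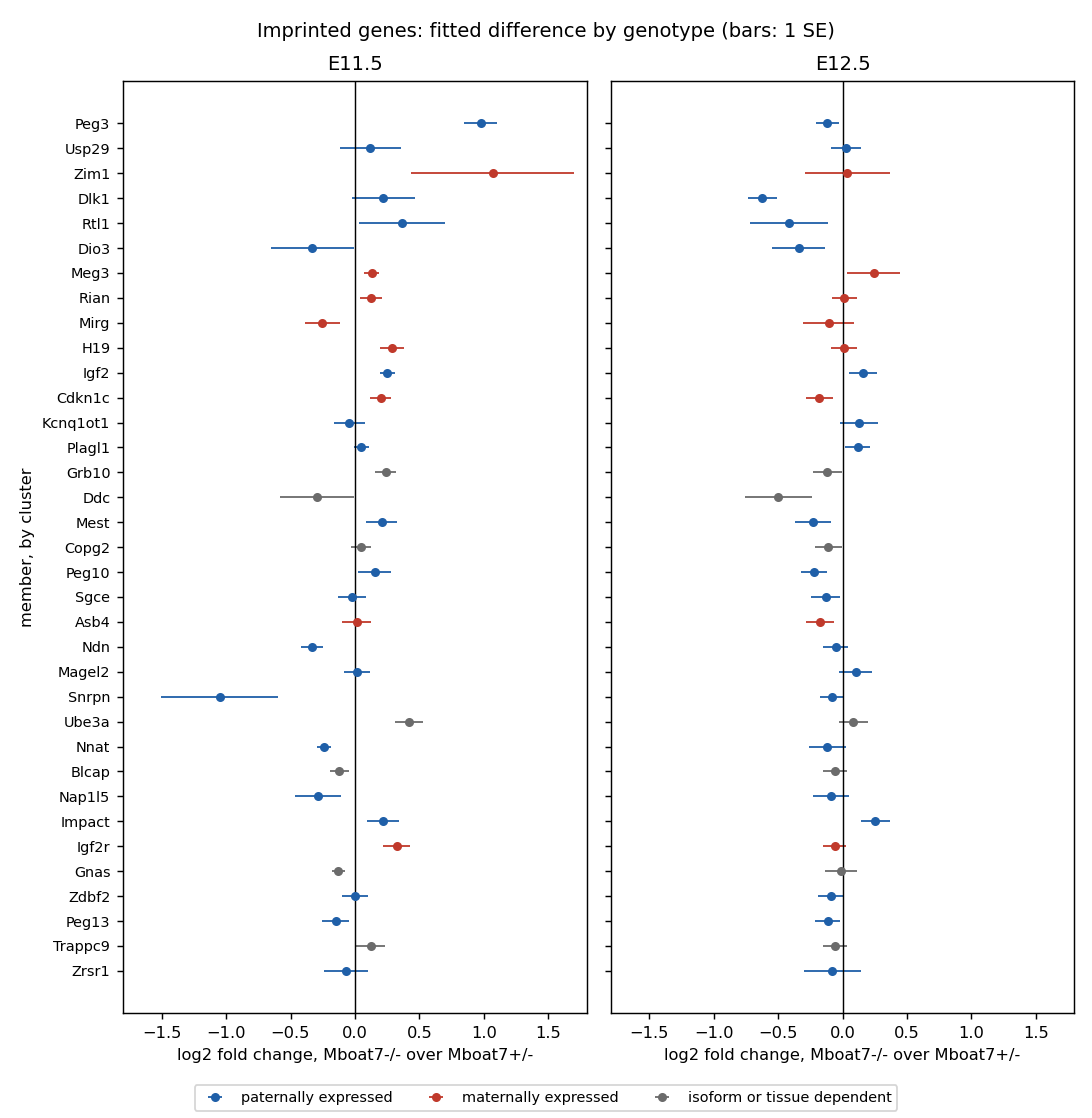
Fitted log2 fold change of each tested member, labelled KO over labelled heterozygous cortices, at E11.5 and E12.5; bars are 1 SE, colours give the allele known to be expressed, and members are ordered by cluster. Peg3 lies at 0.98 at E11.5 and at -0.12 at E12.5, Dlk1 lies at -0.62 at E12.5, and the widest bars belong to the low genes Zim1 and Snrpn.

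The Peg3 cluster on chromosome 7 holds Peg3, a paternally expressed zinc finger protein known for roles in maternal behaviour and growth, its neighbour Usp29, a paternally expressed ubiquitin-specific protease, and Zim1, a maternally expressed zinc finger gene. Peg3 and Usp29 are transcribed away from each other from starts only 164 bases apart (RefSeq, GRCm38.p6), and 263 bases of their 300-base promoter windows are the same. The Peg3 window is printed because most of it is shared with its neighbour. It runs over chr7:6730370-6730669 on the minus strand, from 250 bases before the start to 50 after it. Capitals mark TGACGTCA, a palindrome known as the cAMP response element.

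Peg3: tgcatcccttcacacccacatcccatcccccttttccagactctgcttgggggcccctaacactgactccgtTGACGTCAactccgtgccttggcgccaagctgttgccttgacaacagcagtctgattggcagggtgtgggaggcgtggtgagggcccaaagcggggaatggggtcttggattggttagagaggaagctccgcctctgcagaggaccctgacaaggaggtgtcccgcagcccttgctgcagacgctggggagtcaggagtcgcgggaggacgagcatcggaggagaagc

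The window holds 13 CG dinucleotides, against a median of 13.5 over the 44 windows of 28 members and of 7 over all 32851 promoter windows. TGACGTCA occurs in 9.09% of the members' windows, those of Peg3, Usp29, Meg3 and Zdbf2, and in 1.79% of all windows. Since the windows of Peg3 and Usp29 overlap, 1 site is counted for both. The motifs were chosen after the sequences were seen.

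At E11.5, Peg3 had counts of 1116 and 1505 in the labelled heterozygous cortices and of 3413 and 2281 in the labelled KO cortices. These were 51.5 and 56.9 CPM in the labelled heterozygous cortices and 121 and 92.4 CPM in the labelled KO cortices. Both labelled KO cortices were above both labelled heterozygous ones, with a log2 fold change of 0.98 ± 0.13 (SE, n = 2 per genotype), a fold of 1.97. Between the cortices numbered 1 the log2 ratio was 1.23, and between those numbered 2 it was 0.70. At E12.5, Peg3 had 174 and 170.1 CPM in the labelled heterozygous cortices and 159.9 and 157 CPM in the labelled KO cortices. There both labelled KO cortices were below both labelled heterozygous ones, by a small margin, and the log2 fold change was -0.12 (SE 0.089). Without replicate 1 of the labelled KO cortices, the cortex low in neuron markers, the log2 fold change at E11.5 was 0.77, and without the Xist-high cortex it was 0.91. Removing the trend of fold changes with transcript length and GC content gave 0.79.

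At E11.5, Usp29 had 9.1 and 13 CPM in the labelled heterozygous cortices and 10.1 and 14.4 CPM in the labelled KO cortices, so the genotypes overlapped, and its log2 fold change was 0.12 ± 0.24 (SE, n = 2 per genotype) with an adjusted p of 0.857. With 1 cortex left out the value ran from -0.14, without replicate 2 of the labelled KO cortices, to 0.43, without replicate 2 of the labelled heterozygous ones. The ratio of Peg3 to Usp29 counts, taken within a cortex, was 5.66 and 4.39 in the labelled heterozygous cortices at E11.5 and 12 and 6.41 in the labelled KO cortices. At E12.5 the 4 ratios lay between 4.09 and 5.14. An annotated antisense gene, Zim3, shares 14.3% of the exonic bases of Usp29 but had no count in any cortex. At E12.5, Usp29 had 37.2 and 33.1 CPM in the labelled heterozygous cortices and 33.3 and 38.5 CPM in the labelled KO cortices.

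Zim1 was low. Its counts at E11.5 were 33 and 41 in the labelled heterozygous cortices and 143 and 29 in the labelled KO cortices, so 1 cortex was far above the other 3. The log2 fold change of 1.07 ± 0.63 (SE, n = 2 per genotype) became -0.39 without that cortex. At E12.5 the counts were 73, 40, 56 and 69, and the log2 fold change was 0.037.

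**Figure D3:**
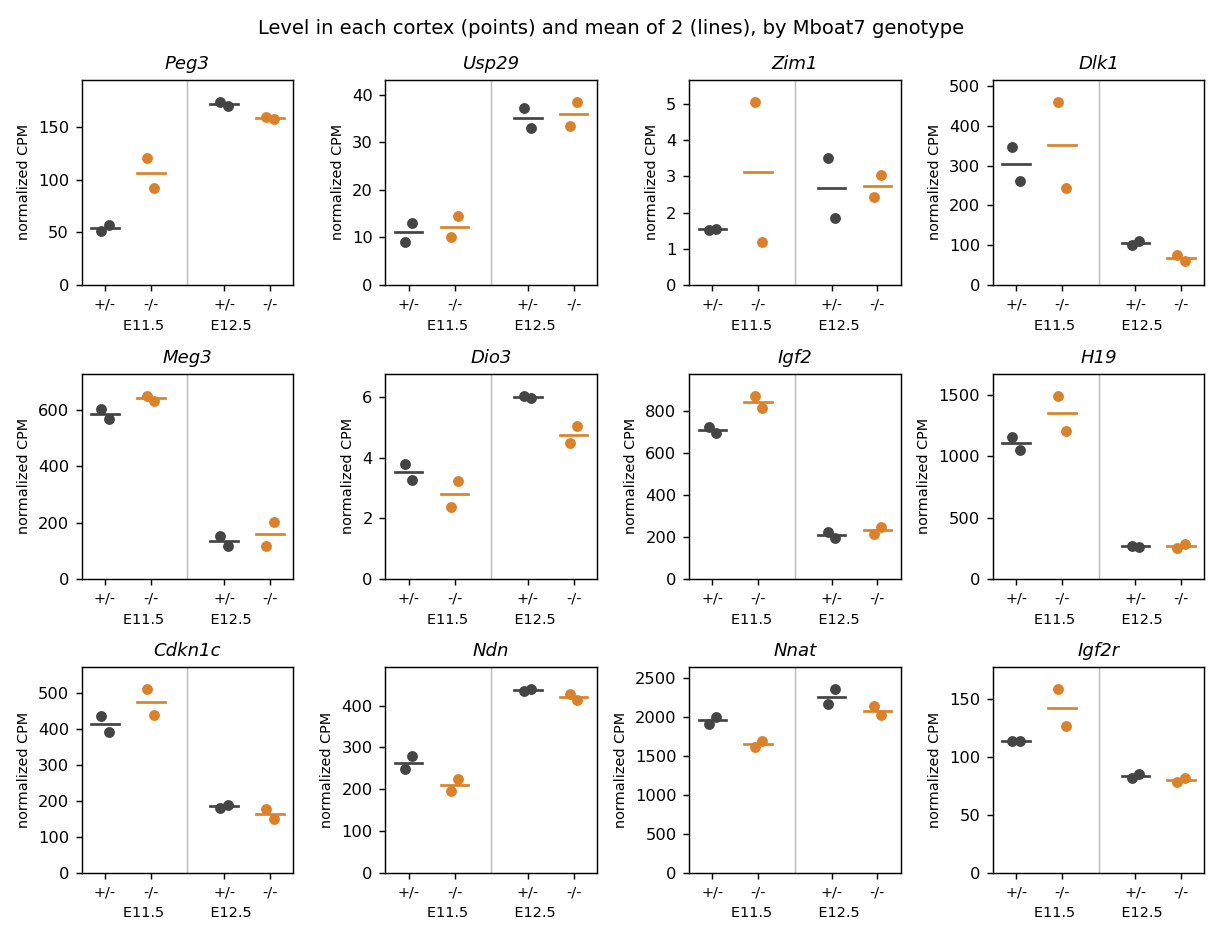
Level of 12 members in each cortex (points, CPM on normalized library sizes, axes from 0) and the mean of 2 cortices (lines), for labelled heterozygous (+/-) and labelled KO (-/-) cortices at each stage. The points of Peg3 separate widely at E11.5 and narrowly, in the other order, at E12.5, those of Dlk1 overlap at E11.5 and separate at E12.5, and those of Meg3, Igf2 and H19 are several fold lower at E12.5 in both genotypes.

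The Dlk1-Dio3 cluster on chromosome 12 has protein genes read from the paternal copy, Dlk1, Rtl1 and Dio3, and a train of non-coding RNAs read from the maternal copy, Meg3, Rian and Mirg. Dlk1 encodes a transmembrane protein related to Notch ligands that acts on stem and progenitor cells. The promoters of Dlk1 and Meg3 are printed because these genes stand for the 2 alleles of the cluster and Dlk1 is the member with the lowest p at E12.5. The windows are chr12:109452573-109452872 for Dlk1 and chr12:109540746-109541045 for the first of 2 windows of Meg3, both on the plus strand (RefSeq, GRCm38.p6). Capitals mark TGACGTCA, the TATA box letters TATAAA, and TGCCGC or its reverse complement, the letters bound by the imprint keeper ZFP57 when the CG within them is methylated.

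Dlk1: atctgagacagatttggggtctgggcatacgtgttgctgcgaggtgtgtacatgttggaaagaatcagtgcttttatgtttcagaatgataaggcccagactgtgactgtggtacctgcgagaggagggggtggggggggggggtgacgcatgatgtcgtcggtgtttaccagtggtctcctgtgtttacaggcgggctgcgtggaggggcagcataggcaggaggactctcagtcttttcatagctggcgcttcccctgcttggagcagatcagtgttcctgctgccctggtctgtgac

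Meg3: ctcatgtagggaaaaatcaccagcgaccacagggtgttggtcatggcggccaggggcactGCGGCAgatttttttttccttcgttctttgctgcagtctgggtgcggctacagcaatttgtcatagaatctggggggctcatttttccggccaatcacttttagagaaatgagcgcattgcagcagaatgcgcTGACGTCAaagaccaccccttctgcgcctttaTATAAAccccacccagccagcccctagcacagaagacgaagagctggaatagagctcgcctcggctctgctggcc

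None of the 3 motifs is in the Dlk1 window, which holds 9 CG dinucleotides. The Meg3 window holds 13 and has all 3 motifs. TGCCGC on either strand is in 27.3% of the members' windows and 11.6% of all windows, and TATAAA on either strand in 22.7% and 13.6%. The members whose windows hold TGCCGC are Copg2, Grb10, Igf2, Meg3, Mest, Nap1l5, Nnat, Plagl1, Snrpn, Zdbf2 and Zim1.

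At E12.5, Dlk1 had 99.4 and 111 CPM in the labelled heterozygous cortices and 75.2 and 61.4 CPM in the labelled KO cortices. Both labelled KO cortices were below both labelled heterozygous ones, and the log2 fold change was -0.62 ± 0.11 (SE, n = 2 per genotype) with an adjusted p of 0.285. With the replicate block it was -0.63 with an adjusted p of 0.00661, and DESeq2 gave an adjusted p of 0.00484. Blood markers at E12.5 summed to 5308 and 7714 CPM in the labelled heterozygous cortices and to 5402 and 3811 CPM in the labelled KO cortices, lowest in the cortex where Dlk1 was lowest too, and their part was not tested. Leaving out 1 cortex at a time kept the log2 fold change between -0.78 and -0.48. At E11.5, Dlk1 had 347 and 261 CPM in the labelled heterozygous cortices and 461 and 244 CPM in the labelled KO cortices. The genotypes overlapped there, the highest and the lowest cortex both being labelled KO, and the log2 fold change was 0.22 ± 0.24 (SE, n = 2 per genotype). Without replicate 1 of the labelled KO cortices it was -0.31. The interaction of stage and genotype had a log2 value of -0.84 for Dlk1 with an adjusted p of 0.888, so the genotype differences at the stages were not shown to differ.

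The other paternally expressed genes of the cluster were low. Rtl1, a retrotransposon-derived protein gene, had counts of 95, 70, 143 and 92 at E11.5 and of 46, 58, 46 and 38 at E12.5 (labelled heterozygous cortices first), with log2 fold changes of 0.37 and -0.41. Dio3, the enzyme that inactivates thyroid hormone, had 3.79 and 3.25 CPM in the labelled heterozygous cortices and 2.37 and 3.24 CPM in the labelled KO cortices. At E12.5, Dio3 had 6.06 and 5.98 CPM in the labelled heterozygous cortices and 4.47 and 5.04 CPM in the labelled KO cortices. Dio3 had both labelled KO cortices below both labelled heterozygous ones at both stages, with log2 fold changes of -0.33 and -0.34, and with adjusted p = 0.68 and 0.954. At E12.5 all 3 paternally expressed genes of the cluster, Dlk1, Rtl1 and Dio3, had both labelled KO cortices below both labelled heterozygous ones, a pattern that 15.2% of all genes showed.

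The maternally expressed RNAs of the cluster did not share this order at E12.5. Meg3 had 605 and 570.1 CPM in the labelled heterozygous cortices and 652 and 634 CPM in the labelled KO cortices at E11.5. At E12.5, Meg3 had 151 and 117 CPM in the labelled heterozygous cortices and 117 and 200.4 CPM in the labelled KO cortices, with replicate 2 of the labelled KO cortices highest and replicate 1 level with the lowest. Its log2 fold change at E12.5, 0.24 ± 0.20 (SE, n = 2 per genotype), became 0.58 without replicate 1 of the labelled KO cortices, where it had an adjusted p of 0.00214 and 1.89% of all genes had one under 0.05. In the same replicate 2, 6 choroid plexus markers summed to 309 CPM, against 125 to 172 CPM in the others, and their part in the value of Meg3 was not tested. Rian, a host of small nucleolar RNAs, had 187 and 174 CPM in the labelled heterozygous cortices and 173 and 192 CPM in the labelled KO cortices at E12.5, and Mirg, a host of microRNAs, ranged from 7.16 to 10.1 CPM, with overlap between genotypes for both. At E11.5, Rian had 360.3 and 349 CPM in the labelled heterozygous cortices and 423 and 349 CPM in the labelled KO cortices and Mirg 26.7 and 23.2 CPM in the labelled heterozygous cortices and 21.9 and 19.8 CPM in the labelled KO cortices, Mirg being the only maternally expressed member with a log2 fold change below 0, at -0.25. The ratio of Dlk1 to Meg3 counts at E12.5 was 0.657 and 0.948 in the labelled heterozygous cortices and 0.645 and 0.306 in the labelled KO cortices.

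Igf2, H19, Igf2r, Grb10 and Cdkn1c had higher values in the labelled KO cortices at E11.5. None had an adjusted p under 0.05 in the edgeR fit of the 4 cortices without the block, while DESeq2 gave 0.0452 for Igf2. Igf2, the growth factor read from the paternal copy, had 726 and 694 CPM in the labelled heterozygous cortices and 874 and 816 CPM in the labelled KO cortices. Its log2 fold change was 0.25 ± 0.059 (SE, n = 2 per genotype) with an adjusted p of 0.18, and of 0.0241 with the replicate block. H19, the maternally expressed RNA that shares its enhancers, had 1160.5 and 1053 CPM in the labelled heterozygous cortices and 1496 and 1208 CPM in the labelled KO cortices. That of H19 was 0.29 ± 0.095 (SE, n = 2 per genotype) with an adjusted p of 0.246, and of 0.0174 with the block. For both genes the genotypes did not overlap. The Igf2 to H19 count ratio was between 0.584 and 0.676 in the 4 cortices, both ends being labelled KO cortices, so the ratio did not separate the genotypes. The annotation places 62.8% of the exonic bases of Igf2 in a further gene, Gm49394, on the same strand, and how the authors' counting split such reads is not given in the sources used here.

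Igf2r, the receptor that clears IGF2 and restrains growth, had 114 and 114 CPM in the labelled heterozygous cortices and 158 and 126 CPM in the labelled KO cortices. The log2 fold change of Igf2r was 0.32 ± 0.10 (SE, n = 2 per genotype), with adjusted p = 0.235 and 0.0444 with the block. Grb10, an adaptor that restrains insulin and IGF receptor signals, had 890.1 and 864 CPM in the labelled heterozygous cortices and 1130.1 and 939 CPM in the labelled KO cortices. For Grb10 it was 0.24 ± 0.082 (SE, n = 2 per genotype), with adjusted p = 0.262 and 0.0498 with the block. Cdkn1c, an inhibitor of cyclin-dependent kinases that lets progenitors leave the cell cycle, had 436 and 391 CPM in the labelled heterozygous cortices and 510.3 and 438 CPM in the labelled KO cortices. The difference in log2 terms was 0.20 ± 0.084 (SE, n = 2 per genotype) for Cdkn1c, and the adjusted p of 0.338 was 0.0812 with the block. In all of Igf2r, Grb10, Cdkn1c and H19 the highest cortex was replicate 1 of the labelled KO cortices. Without it their log2 fold changes were 0.15, 0.10, 0.085 and 0.13 in that order. With the trend of length and GC content removed they were 0.16, 0.16, 0.30 and 0.36, in the same order. With the block as well, the adjusted p was 0.542, 0.342, 0.0432 and 0.0223. For Igf2 the log2 fold change was 0.23 with the trend removed, and the adjusted p with block and trend was 0.0868.

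Mesenchyme markers were also higher in the labelled KO cortices at E11.5. All 12 tested mesenchyme markers had a log2 fold change above 0 at E11.5, 10 of them without overlap between genotypes, with a median of 0.36, where 23.1% of all genes were above without overlap. Their summed level was 1791 to 1845 CPM in the labelled heterozygous cortices, and no marker of the list was at 0. In the labelled KO cortices it was 2164 CPM in replicate 1 and 2272 CPM in replicate 2. Igf2, H19, Igf2r, Grb10 and Cdkn1c were all higher in replicate 1 than in replicate 2 of those cortices. With the block, 7 of the 12 mesenchyme markers had an adjusted p under 0.05, beside 3.38% of all genes. Neuron markers went the other way, with all 10 below 0 and a median of -0.27. Only 1 of them was below without overlap, where 23.3% of all genes were. The sum of the neuron markers was 1948 and 2219 CPM in the labelled heterozygous cortices and 1307 and 2067 CPM in the labelled KO cortices. Other neural lists at E11.5 also lay mostly below 0. Of intermediate progenitor markers, 8 of 8 were below 0, 6 without overlap. Of ventral telencephalon markers, 11 of 12 were below 0, 6 without overlap. Of radial glia markers, 8 of 10 were below 0, 5 without overlap. The part of any of these lists in the values of Igf2, H19, Igf2r, Grb10 and Cdkn1c was not tested. In these bulk samples, fewer cells of a type and less RNA per cell cannot be told apart.

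At E12.5 these 5 genes overlapped between genotypes or went the other way. Igf2 had 222 and 194 CPM in the labelled heterozygous cortices and 215 and 249 CPM in the labelled KO cortices. H19 had 268 and 262 CPM in the labelled heterozygous cortices and 249.5 and 285 CPM in the labelled KO cortices. For both, replicate 2 of the labelled KO cortices was highest and the genotypes overlapped. Cdkn1c had 180.4 and 188 CPM in the labelled heterozygous cortices and 176 and 149 CPM in the labelled KO cortices, both labelled KO cortices being below both labelled heterozygous ones, with a log2 fold change of -0.18 ± 0.10 (SE, n = 2 per genotype). Igf2r and Grb10 had log2 fold changes of -0.061 and -0.12. The adjusted p was 0.954, 0.964 and 0.954 for Cdkn1c, Igf2r and Grb10. Mesenchyme markers at E12.5 summed to 723 and 562 CPM in the labelled heterozygous cortices and to 699.6 and 751 CPM in the labelled KO cortices.

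Plagl1, a paternally expressed zinc finger factor known to regulate other imprinted genes, varied least over the 4 cortices at E11.5, by 1.05-fold from lowest to highest, and was the one member above in both labelled KO cortices at both stages. It had 259 and 255 CPM in the labelled heterozygous cortices and 265 and 267 CPM in the labelled KO cortices. At E12.5, Plagl1 had 149.5 and 134 CPM in the labelled heterozygous cortices and 154 and 154 CPM in the labelled KO cortices. The log2 fold changes were 0.048 and 0.12, with SE 0.058 and 0.094. Kcnq1ot1, the paternal non-coding RNA that silences Cdkn1c and its neighbours in cis, ranged from 24.8 to 26.9 CPM at E11.5 and from 10.7 to 11.8 CPM at E12.5, with log2 fold changes of -0.042 and 0.13.

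Ndn and Nnat had lower values in the labelled KO cortices at E11.5. Ndn, a paternally expressed MAGE family gene of differentiated neurons, had 248 and 279 CPM in the labelled heterozygous cortices and 195 and 224 CPM in the labelled KO cortices. Its log2 fold change was -0.34 ± 0.086 (SE, n = 2 per genotype), with adjusted p = 0.187 and 0.0104 with the block. Nnat, the paternally expressed neuronatin gene, was the most abundant member per length, and had 1916 and 1999.6 CPM in the labelled heterozygous cortices and 1617 and 1697 CPM in the labelled KO cortices. That of Nnat was -0.24 ± 0.054 (SE, n = 2 per genotype), with adjusted p = 0.174 and 0.0246 with the block. For both genes every labelled KO cortex was below every labelled heterozygous one. The log2 ratios between same-numbered cortices were -0.35 and -0.32 for Ndn and -0.24 and -0.24 for Nnat. At E12.5, Ndn had 434 and 439 CPM in the labelled heterozygous cortices and 428 and 413 CPM in the labelled KO cortices. Nnat had 2162 and 2356 CPM in the labelled heterozygous cortices and 2141 and 2021 CPM in the labelled KO cortices there. The order of the genotypes was the same with smaller differences, log2 fold changes of -0.054 for Ndn and -0.12 for Nnat. The summed level of the neuron markers was lowest in replicate 1 of the labelled KO cortices, where Ndn and Nnat were lowest too, and its part was not tested. Without that cortex the log2 fold changes at E11.5 were -0.24 for Ndn and -0.20 for Nnat. With the trend of length and GC content removed they were -0.37 for Ndn and -0.12 for Nnat. With the block as well, the adjusted p was 0.0203 for Ndn and 0.407 for Nnat.

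Blcap, whose intron holds Nnat, had a log2 fold change of -0.12 at E11.5, and the Nnat to Blcap count ratio was 22.6 and 22.5 in the labelled heterozygous cortices and 20.4 and 21.1 in the labelled KO cortices. At E12.5 the ratio was 22, 21.2, 20.8 and 20.6 in the same order. Both labelled KO cortices were below both labelled heterozygous ones at either stage.

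Ube3a, a ubiquitin ligase read from the maternal copy in mature neurons and from both copies elsewhere, had 29.8 and 30.0 CPM in the labelled heterozygous cortices and 42.2 and 37.6 CPM in the labelled KO cortices. Its log2 fold change was 0.42 ± 0.11 (SE, n = 2 per genotype), with adjusted p = 0.187 and 0.0527 with the block. The value was 0.18 once the trend with length and GC content was removed. At E12.5, Ube3a overlapped between genotypes, with a log2 fold change of 0.083. Magel2, a further MAGE family gene, ranged from 40.5 to 44.8 CPM at E11.5 and from 19.3 to 22.4 CPM at E12.5, with overlap at both. Snrpn, a paternally expressed splicing protein gene, was counted 20 to 58 times at E11.5 and 3194 to 3460 times at E12.5. It shares exons on the same strand with Snurf and Gm38393, so reads can be split differently between the gene lists of the stages. Snurf itself had no count in any cortex at E11.5 and counts of 5 to 13 at E12.5. How reads over shared exons were counted is not given, and the log2 fold change of Snrpn at E11.5, -1.05 ± 0.45 (SE, n = 2 per genotype), is uncertain. At E12.5 the log2 fold change of Snrpn was -0.083.

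Mest and Peg10, both paternally expressed and both abundant in embryonic tissue, again had replicate 1 of the labelled KO cortices highest at E11.5. Mest, a hydrolase family gene, had 1109 and 1026 CPM in the labelled heterozygous cortices and 1421 and 1044 CPM in the labelled KO cortices. Peg10, a retrotransposon-derived gene needed for the placenta, had 424 and 362 CPM in the labelled heterozygous cortices and 498 and 374 CPM in the labelled KO cortices. The genotypes overlapped for both, and without that cortex the log2 fold changes of 0.21 and 0.15 became -0.031 and -0.071. At E12.5, Mest had 642 and 739 CPM in the labelled heterozygous cortices and 669 and 510.5 CPM in the labelled KO cortices. Peg10 had 287 and 282 CPM in the labelled heterozygous cortices and 259 and 229 CPM in the labelled KO cortices there, without overlap, and a log2 fold change of -0.22 ± 0.099 (SE, n = 2 per genotype) with an adjusted p of 0.954. Its neighbours Sgce, a sarcoglycan, and Asb4, a SOCS box protein gene, likewise had lower values in both labelled KO cortices at E12.5, with log2 fold changes of -0.13 and -0.17, and overlapped at E11.5. Of all genes, 15.2% were lower without overlap at E12.5. Peg10, Sgce and Asb4 were each lowest in replicate 2 of the labelled KO cortices, which was lowest for 30.6% of all genes. Copg2, a coat protein subunit whose exons overlap those of Mest on the other strand, had log2 fold changes of 0.047 and -0.11.

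Among the single loci, Impact, an inhibitor of the amino acid sensor kinase GCN2, had 41.6 and 36.4 CPM in the labelled heterozygous cortices and 49.6 and 40.6 CPM in the labelled KO cortices at E11.5. At E12.5, Impact had 25.9 and 23.1 CPM in the labelled heterozygous cortices and 29 and 29.5 CPM in the labelled KO cortices, without overlap between genotypes. Its log2 fold changes were 0.22 ± 0.13 (SE, n = 2 per genotype) and 0.26 ± 0.11 (SE, n = 2 per genotype). Gnas, which encodes the stimulatory G protein alpha subunit, had 1489.5 and 1448 CPM in the labelled heterozygous cortices and 1339 and 1347 CPM in the labelled KO cortices at E11.5, with a log2 fold change of -0.13. At E12.5, Gnas had 1327 and 1364 CPM in the labelled heterozygous cortices and 1411 and 1258 CPM in the labelled KO cortices, with overlap. Its counts pool isoforms of different imprinting. Nap1l5, a nucleosome assembly protein family gene, had counts of 292, 373, 284 and 314 at E11.5 and of 290, 292, 304 and 284 at E12.5 (labelled heterozygous cortices first). Scaled to library size, the labelled KO cortices were the lower pair at both stages, with log2 fold changes of -0.29 and -0.093. Zdbf2, a zinc finger protein gene, Peg13, a non-coding RNA, Trappc9, a trafficking complex subunit whose gene holds Peg13, and Zrsr1, a splicing factor gene, overlapped between genotypes at both stages, with log2 fold changes between -0.15 and 0.12. Ddc, the decarboxylase of dopamine and serotonin synthesis, had counts of 124, 137, 149 and 86 at E11.5 and of 78, 106, 79 and 61 at E12.5, in the same order, and log2 fold changes of -0.29 and -0.50.

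**Figure D4:**
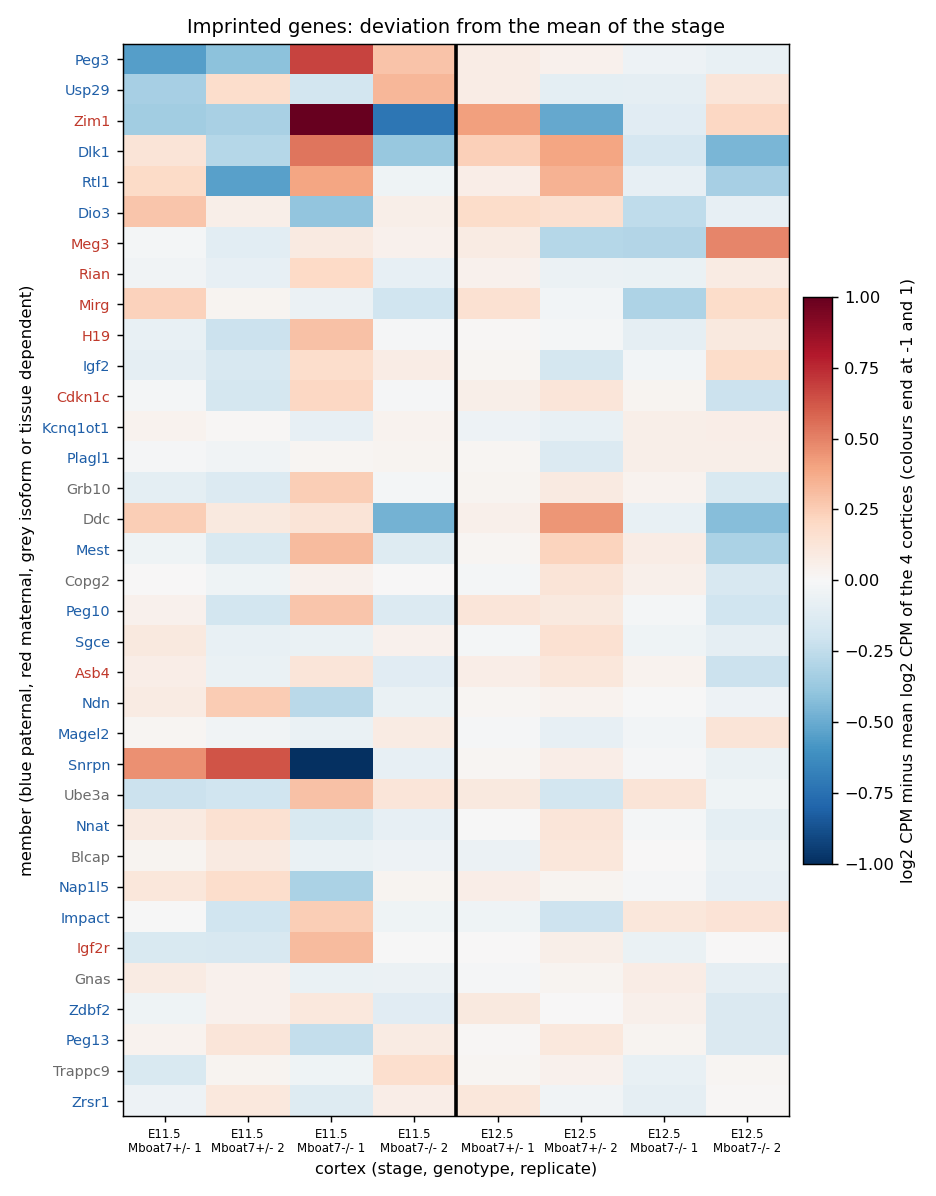
Deviation of each tested member (rows, ordered by cluster, label colour by expressed allele) from its mean log2 CPM over the 4 cortices of the stage, in the 8 cortices (columns); red is higher and blue lower, and colours end at -1 and 1. The third column, replicate 1 of the labelled KO cortices at E11.5, holds the highest value of 18 of 35 members, and the last column, replicate 2 of the labelled KO cortices at E12.5, the lowest value of 19 of 35.

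Single cortices carried many of the extremes. At E11.5, replicate 1 of the labelled KO cortices was highest for 18 of 35 members (51.4%), where it was highest for 29.6% of all genes tested. At E12.5, replicate 2 of the labelled KO cortices was lowest for 19 of 35 members (54.3%), against 30.6% of all genes. Leaving out that replicate 1 changed the sign of 11 members at E11.5, among them Zim1, Dlk1, Mest and Peg10. Leaving out that replicate 2 changed the sign of 7 members at E12.5, among them Meg3 and H19.

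The members were next sorted by the allele they are expressed from. Of 8 maternally expressed members tested at E11.5, 7 were above 0 and 1 below, with a median log2 fold change of 0.17. With the trend of length and GC content removed, 4 were above and 4 below, with a median of 0.075. Of 20 paternally expressed members, 11 were above and 9 below, with a median of 0.0093. The 7 members with isoform- or tissue-dependent imprinting had 4 above and 3 below, with a median of 0.047. Over all genes the median was -0.0055, and 48.9% of genes were above 0 and 51.1% below. With that trend removed, 16 of 35 members were above 0 and 19 below, in place of 22 and 13. In that setting, 8022 of all 14786 genes tested were below 0 too, with a median of -0.017. At E12.5, 24 of 35 members were below 0 and 11 above, where 48.8% of all genes were below 0 and 51.2% above. The medians at E12.5 were -0.093 for paternally expressed members, -0.024 for maternally expressed ones and -0.059 for the remaining 7, against 0.0049 over all genes. With the trend removed, 29 were below 0 and 6 above. Over all genes in that setting, 8749 of 15510 were below 0, and the median was -0.024.

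Counting only members whose genotypes did not overlap, 10, Peg3 among them, were above and 8 below in the labelled KO cortices at E11.5, out of 35. Over all genes 23.1% were above in this way and 23.3% below. At E12.5, 3 members were above and 13 below, against 16.9% and 15.2% of all genes. Of the 13, 10 are paternally expressed: Peg3, Dlk1, Rtl1, Dio3, Peg10, Sgce, Ndn, Snrpn, Nnat and Nap1l5. Of all 35 members tested, 20 are paternally expressed, and Peg3 was selected on its own values. The same order without overlap at both stages was found in 6 members, Plagl1 above and Dio3, Ndn, Snrpn, Nnat and Nap1l5 below, that is in 17.1% of the 35 beside 9.67% of the 12932 genes tested at both stages. At E11.5 the nearest cortices of Dio3 were at 3.25 CPM, labelled heterozygous, and 3.24 CPM, labelled KO. Snrpn, with counts of 20 to 58 there, was uncertain. The opposite order at the stages was found in Peg3, which was selected for it, and in Cdkn1c, 5.71% of members beside 5.24% of genes. The embryos of the stages are different animals, so no cortex enters both counts.

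When the 8 cortices were fitted together, with a term for the stage, no member and no other gene had an adjusted p under 0.05, while 12.3% of the 14993 genes had an unadjusted p under 0.05. Among the members other than Peg3, the lowest adjusted p was 0.31, for Igf2, with a log2 fold change of 0.21 (SE 0.068, n = 4 per genotype). Nnat and Impact followed with log2 fold changes of -0.18 and 0.24 and an adjusted p of 0.334 for each. For the interaction of stage and genotype, 5.46% of genes had an unadjusted p under 0.05 and none an adjusted p under 0.05. Peg3 had an interaction value of -1.10 on the log2 scale, the value that prompted the list. Of the other members, 6 had an unadjusted p under 0.05 for the interaction. It was negative for Dlk1, Igf2r, Cdkn1c and Grb10 at -0.84, -0.39, -0.38 and -0.36, and positive for Snrpn and Ndn at 0.96 and 0.28. The adjusted p was 0.87 for Snrpn and 0.888 for each of the other 5.

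The levels of the members at the 2 stages were set side by side without a test, since stage, sequencing provider and gene list cannot be told apart. Of 35 members, 17 were lower in every cortex at E12.5 than in any at E11.5, 11 were higher, and 7 overlapped. Over the 12932 genes tested at both stages, 42.4% were lower in this way and 19.3% higher. Of the 8 maternally expressed members, 6 were lower and none higher. H19 had a mean of 1229 ± 189 CPM at E11.5 and 266 ± 14.6 CPM at E12.5 (SD, n = 4). Meg3 had 615 ± 36 CPM at E11.5 and 146 ± 39.6 CPM at E12.5 (SD, n = 4). Dlk1 had 328 ± 99.1 CPM at E11.5 and 86.7 ± 22.5 CPM at E12.5 (SD, n = 4), and Igf2 had 778 ± 82.5 CPM at E11.5 and 220.0 ± 22.6 CPM at E12.5 (SD, n = 4). These are between 3.54-fold and 4.62-fold lower values at E12.5. On the higher side were Peg3 with 80.4 ± 32.4 CPM at E11.5 and 165 ± 8.05 CPM at E12.5 (SD, n = 4), Usp29 with 11.6 ± 2.47 CPM at E11.5 and 35.5 ± 2.75 CPM at E12.5 (SD, n = 4), Ndn with 236 ± 35.8 CPM at E11.5 and 429 ± 11.2 CPM at E12.5 (SD, n = 4) and Ube3a with 34.9 ± 6.06 CPM at E11.5 and 135 ± 13.2 CPM at E12.5 (SD, n = 4). The mesenchyme markers summed to between 1791 and 2272 CPM at E11.5 and to between 562 and 751 CPM at E12.5, and the neuron markers to between 1307 and 2219 CPM and between 3465 and 3692 CPM, and their part in these levels was not tested.

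**Figure D5:**
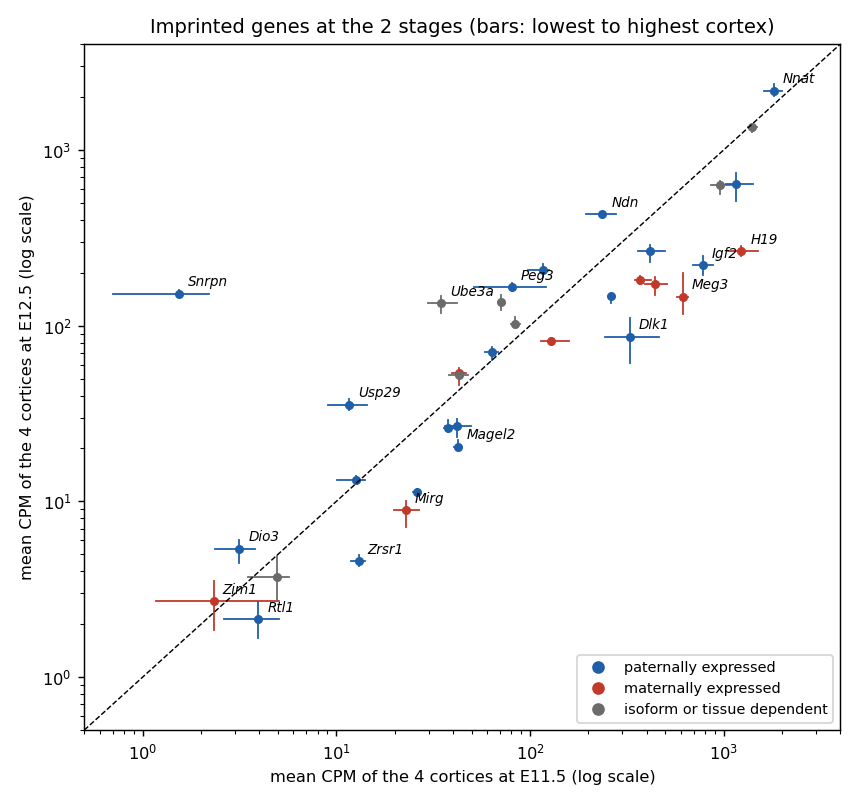
Mean level of each tested member over the 4 cortices at E11.5 (x axis) and at E12.5 (y axis), both in CPM on log scales; bars run from the lowest to the highest cortex, colours give the expressed allele and the dashed line marks equal values. H19, Meg3, Igf2 and Dlk1 lie below the line, Peg3, Usp29, Ndn and Ube3a above it, and Snrpn lies far above it, at 1.54 and 152 CPM.

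Per length, as CPM per kilobase of the longest annotated transcript, the order at E11.5 was led by Nnat (1248), H19 (538), Mest (432), Gnas (356) and Cdkn1c (233). At E12.5 it was led by Nnat (1499), Gnas (339.5), Mest (240.3), Grb10 (124) and H19 (116), the value of Ndn being 116. At E12.5 the neighbours in this order from Grb10 to Ndn lay within 124 and 116, closer than the spread of the cortices of Grb10, whose CPM ran from 563 to 668. Peg3 was at 9.24 and 19 CPM per kilobase, and its neighbour Usp29 at 1.54 and 4.71.

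A further 41 genes reported as imprinted in some tissue were listed beside the members. At E11.5, 30 were tested, 15 above and 15 below 0 with a median log2 fold change of 0.0037. None had an adjusted p under 0.05, and 6 had an unadjusted p under 0.05, beside 14.1% of all genes. The lowest 3 by p were Cobl (0.57), Bcl2l1 (-0.24) and Gab1 (0.33), given as log2 fold changes. At E12.5, 32 were tested, 21 above and 11 below, with a median of 0.092, where 51.2% of all genes were above 0. An unadjusted p under 0.05 was found for 2 of them, beside 4.23% of all genes, and an adjusted one for none. The lowest by p was Snhg14, the paternally expressed RNA antisense to Ube3a, with 17.8 and 21.8 CPM in the labelled heterozygous cortices and 24.8 and 37.1 CPM in the labelled KO cortices. Its log2 fold change was 0.65 and its adjusted p 0.954, and it was followed by Th (-0.56) and Dcn (0.41). Snhg14 was not among the genes of the E11.5 list.

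Of 19 genes that set or keep imprints, 17 were tested at each stage. At E11.5, 16 were above 0 and 1 below, with a median log2 fold change of 0.19. Hells, a chromatin remodeller needed for DNA methylation, had 95.3 and 97.7 CPM in the labelled heterozygous cortices and 124 and 116 CPM in the labelled KO cortices, a log2 fold change of 0.32 and an adjusted p of 0.18, or 0.0322 with the block, and all 9 of the list without overlap between genotypes were on the higher side, where 23.1% of all genes were above and 23.3% below. Zfp445, a zinc finger protein that keeps imprints, had a log2 fold change of 0.26, and Dnmt1, the maintenance DNA methyltransferase, 0.21, each with an adjusted p of 0.187, while with the block Zfp445 also passed 0.05 and Dnmt1 had 0.0578, beside 3.38% of all genes with a block value under 0.05. At E12.5, 5 were above and 12 below, with a median of -0.038 and an adjusted p of 0.954 for the lowest 3, Uhrf1 (-0.21), Tet2 (0.21) and Zfp57 (0.31).

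Of 12 non-imprinted genes of the IGF axis, 11 were above 0 at E11.5 with a median log2 fold change of 0.21, 7 of them without overlap, against 23.1% of all genes above in this way. At E11.5 mesenchyme markers had log2 fold changes above 0 and neuron markers below 0, though only 1 neuron marker did not overlap between genotypes. Of the intermediate progenitor markers, all 8 were below 0 there, 6 of them without overlap. The part of these markers was not tested. Igfbp5, a secreted IGF-binding protein, had 404 and 408 CPM in the labelled heterozygous cortices and 604 and 458 CPM in the labelled KO cortices and a log2 fold change of 0.39, with adjusted p = 0.208 and 0.0169 with the block. Igfbp2, a binding protein of neural progenitors, was the only one below 0, at -0.22, with adjusted p = 0.207 and 0.0485 with the block. Irs1, a substrate of the receptors, had a log2 fold change of 0.24. At E12.5, 6 were above and 6 below 0. There Igfbp5 was at -0.32, the mRNA-binding protein gene Igf2bp1 at -0.30 and the receptor gene Insr at 0.23, all with an adjusted p of 0.954.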

How the data were processed

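RNA of 8 mouse embryonic cortices was poly(A)-selected and sequenced from a directional kit. The authors deposited raw read counts per gene, as 1 table per stage, and gave no normalized values. The submitters' processing notes name HISAT2, Subread, mm10 and GRCm39 without saying which table used which build, and the strand setting of the counting is not given in the sources used here. Genes are listed by symbol at E11.5 (23420 of them) and by Ensembl identifier at E12.5 (78298 of them). The table of genes used for names and neighbours, and the promoter sequences, are RefSeq's for GRCm38.p6, so no gene coordinates were taken from the count tables.

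The quasi-likelihood test of edgeR 4.0.16 (R 4.3.3) was run within a stage on TMM-normalized counts of the genes kept by filterByExpr, whose minimum count was 10, and p-values were adjusted over all genes tested by Benjamini-Hochberg. DESeq2 1.42.0 was an alternative. Both were checked on simulated counts. With 2 embryos per genotype and stage, named biological replicates by the labels, p-values measure the spread between these embryos. The sample titles name no batch, and the added fit with a replicate block used the replicate numbers. Same-numbered cortices deviated from their group means with a correlation of 0.055 at E11.5 and -0.12 at E12.5. No 2 cortices agreed within sampling noise. A count of 3, the floor, corresponded to 0.106 to 0.144 CPM, for counting error only. The members, gene lists and tests were chosen with earlier results of these data known. Named genes were the members plus, in each further list, the 3 with the lowest p at a stage.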

Additional observations from a re-analysis of the deposited data

Results flagged for a closer look

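Peg3 and Cdkn1c were picked out because their genotype order was opposite at the stages, every labelled KO cortex lying above every labelled heterozygous one at E11.5 and below at E12.5. The interaction of stage and genotype was -1.10 on the log2 scale for Peg3, which had prompted the list and is given as a description. For Cdkn1c it was -0.38 (SE 0.15, n = 2 per genotype and stage), with an adjusted p of 0.888 by edgeR's quasi-likelihood test, so the difference between the stages was not shown. Stage and sequencing provider cannot be told apart in either value.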

How the results depend on the processing

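With 2 embryos per group the number of genes under an adjusted p of 0.05 moved widely, and with it the number of members. At E11.5, 0 genes passed in the edgeR fit (2107 had an unadjusted p under 0.05), 178 with DESeq2, 2 with at least 10 counts required in every cortex, 505 with the replicate block, 104 with the block and the length and GC trend removed, and 1 to 1184 with 1 cortex left out, the most without replicate 2 of the labelled KO cortices. The members among them, counting Peg3 although its values chose it, numbered 3, 0, 7, 4 and 0 to 15, and 2, 0, 6, 3 and 0 to 14 without it. At E12.5, 3 genes passed, 10 with DESeq2, 0 without a filter or with at least 10 counts required, 32 with the block, 46 with block and trend, and 30 to 323 with 1 cortex left out, the most without replicate 1 of the labelled KO cortices. The members numbered 1, 0, 0, 1, 1 and 0 to 2. A pairing of the E12.5 cortices across replicate numbers, chosen after seeing the data, gave 158 genes and 2 members. Over both stages the counts were 3 with DESeq2, 3 with block and trend, and 0 to 13 with 1 cortex left out, and for the interaction 20, 1 and 0 to 84, of which 1 member with DESeq2 and 0 to 2 with 1 cortex left out, Peg3 counted. The cause of these differences was not tested, and the block alone called no gene over both stages or for the interaction and changed the call of no member beyond those 7 at E11.5 and Dlk1 at E12.5.

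The median log2 fold change of paternally expressed members at E11.5 was -0.063 with the trend removed, -0.047 with block and trend, and -0.068 to 0.024 with 1 cortex left out. That of maternally expressed members, 0.17 as reported, was 0.075, 0.065 and 0.085 to 0.28, lowest without replicate 1 of the labelled KO cortices and highest without replicate 1 of the labelled heterozygous ones. That of the 7 isoform- or tissue-dependent members was 0.0035, 0.0025 and 0.018 to 0.042. At E12.5 the medians with 1 cortex left out were -0.13 to -0.055 for paternally expressed members, -0.093 to 0.090 for maternally expressed ones and -0.15 to -0.023 for the 7 others. With the trend removed the last 2 were -0.13 and -0.11, and -0.13 and -0.12 with the block too. Of 945 log2 fold changes of single members under the alternatives, 878 stayed within 1 SD of the reported value and 65 had the other sign. With 1 cortex left out, the lone cortex was assumed to vary like the others. Where 2 cortices stand for a genotype, a log2 fold change with an SE near 0.11 limits what could be seen to differences well above that size.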
